A study of Gallus gallus with 14 samples.

Results

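The response of DKO-S cells to doxycycline (DOX) was measured on 4 of the 14 deposited arrays, those whose labels set DKO-S cells grown with DOX (+DOX) against DKO-S cells grown without it (-DOX). The main values come from 2 of the 4 arrays, chosen because over 50% of their clone spots passed a confidence filter: culture A with the +DOX extract in Cy3 and culture B with the +DOX extract in Cy5. The other 2 carry the same extracts with the dyes exchanged, passed the filter far less often, and were used only as a check. DKO-S is a derivative of DT40, a chicken B-cell line, in which both copies of the clathrin heavy chain gene are deleted and a transgene under Tet-Off control, which DOX switches off, supplies clathrin in their place. The -DOX cells carry the deletion and the transgene too. DKO-R, derived from DKO-S and described as less sensitive to the loss of clathrin, and DT40 itself, with its own clathrin genes and no Tet-Off transgene, were each compared with and without DOX on 4 arrays of the same kind, in cultures A and B. The labels call A and B biological replicates, and neither the labels nor the array methods give the dose or the time of DOX.

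Clathrin forms the coat of vesicles that bud from the plasma membrane and the trans-Golgi network, and it carries receptors with their ligands, among them transferrin with its iron, into the cell. In a Tet-Off system the transactivator drives the transgene until DOX binds it, so that the drug stops transcription of the transgene and the protein is then lost as it turns over. DOX also acts on cells that carry no transgene, for instance on translation in mitochondria, and DT40 cells serve as the comparison for this.

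The array is printed with expressed sequence tag (EST) clones, 12854 of them in 26227 spots that are not controls. Each array gives for every spot the intensity in both channels as the BlueFuse software estimated it, and the confidence of the spot. Spots under a confidence of 0.30 were left out. The log2 of Cy5 over Cy3 had the array's median subtracted and was averaged over the spots of a clone. The mean of the clone on the 8 DKO-R and DT40 DOX arrays (its dye offset) was then taken off, and the ratio was turned to +DOX over -DOX. A value below 0 therefore means less signal in +DOX cells. Only 47 clones have names here, those that the study lists as differing between DKO-R and DKO-S without DOX, and 5 of these are listed as unknown. The 41 gene names are called the named genes below, and 33 of them are also symbols or synonyms in the RefSeq annotation of chicken (assembly GRCg7b). Most names rest on homology to a gene of chicken or another species, and for MAP4K4, NFKBIE and CCL17 this homology is given as low or weak. Groups of clones (signalling, trafficking, cell interaction, transcription, immune) were assigned by role, in part after the study's text and in part here. The list is one of differences between the lines and not of responses to DOX. On the arrays that set DKO-R directly against DKO-S, most of its clones were not far apart. Over 45 of them the median log2 difference, DKO-R minus DKO-S, was 0.08. It ranged from -0.59 (SLC26A9) to 2.90 (immunoglobulin J chain), with MAP4K4 at 0.04 and CXCR4 at -0.26.

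On the main arrays 67.4% (culture A) and 57.2% (culture B) of the clone spots were kept, which left 9533 and 8384 clones, and 7936 clones were measured on both. The corresponding arrays with the dyes exchanged kept 2.13% and 22.7%, against 60.7% to 72.1% on the DKO-R and 63.2% to 67.5% on the DT40 DOX arrays. On these weak arrays the +DOX channel was at the level of the blanks. Its median intensity was 82.0 (culture A) and 87.5 (culture B), against 96.9 and 82.6 in the blank spots of the same channel, while the -DOX channel of the same arrays stood at 2537 and 408. The same +DOX extracts gave medians of 2538 and 906 on the main arrays. The 43 named clones measured on the weak array of culture B had +DOX intensities of 158 to 1150 there, with a median of 235, against 1309 to 21680 in -DOX cells. With so little +DOX signal, the sign of a clone on this array says little of the response to DOX. Clones that were bright on the main arrays lay on both sides of 0 there. FBXO46 and PNRC1 (ChEST358J1), of mean log2 intensity 12.7 and 12.6 on the main arrays, were at -1.88 and 1.09. On the weak array itself they were not alike, with intensities of 21680 and 2326 in -DOX cells. Whether the sign there follows the -DOX intensity was not tested. The number of arrays, 1 for each culture, limits the precision of all values below.

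**Figure D1:**
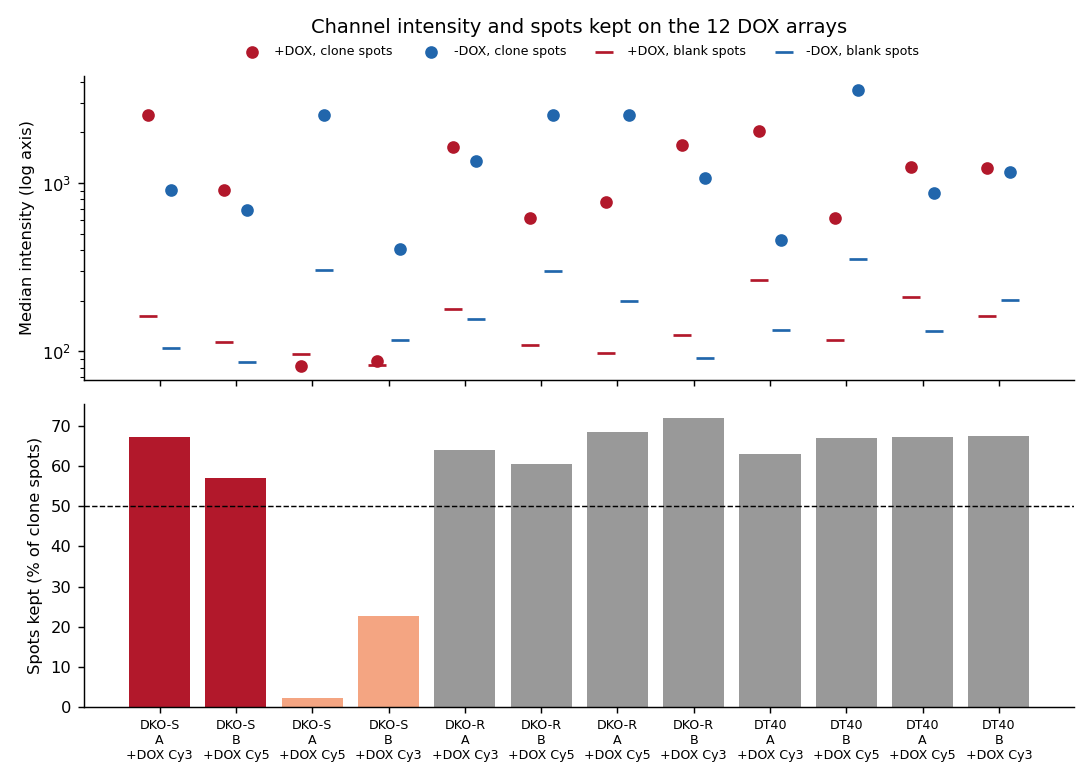
Median intensity of the clone spots (points) and of the 114 blank spots (dashes) in the +DOX and -DOX channels, on a log axis, above the percentage of clone spots kept at a confidence of 0.30 or more, for the 12 DOX arrays. The 2 main DKO-S arrays (red bars) lie above the 50% line and the 2 weak ones (orange bars) at 2.13% and 22.7%, with +DOX medians beside those of the blank spots.

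The line in the labels was checked with immunoglobulin J chain (IgJ, DT40subNB_9D2), the joining peptide of secreted antibodies and the only named gene of the 22 on a list of B-cell markers. In the 4 channels of the main arrays its intensity, on the log2 scale over the median of the channel, was 2.25 and 1.73 in +DOX cells of cultures A and B, against 2.24 and 1.68 in -DOX cells. It ranged from -0.89 to 0.43 in the 8 channels of the arrays labelled DKO-R +DOX against -DOX and from -0.77 to -0.07 in the 8 channels of those of DT40. On the weak DKO-S array of culture B it was 1.90 in +DOX and 0.46 in -DOX cells, over medians of fewer kept spots. The latter lies next to the highest DKO-R value. The 2 direct arrays of the series set DKO-R against DKO-S without DOX. Both are labelled culture A, with the dyes exchanged, so that the 2 values of a line come from 1 culture. Their channels labelled DKO-R were at 2.65 and 2.85 and those labelled DKO-S at -0.32 and 0.11. On the DOX arrays the main channels labelled DKO-S thus did not overlap those of the other lines, and by this gene the cells labelled DKO-S on the DOX arrays are like those labelled DKO-R on the direct arrays. Other clones were set side by side in the same way, each line with as many Cy3 as Cy5 channels. Of 28 clones whose mean level was 2-fold or more apart on the direct arrays, 25 differed between the DOX arrays of DKO-S and DKO-R in the direction opposite to the labels, and 3 in that of the labels. Among them were PNRC1 (pat.pk0061.e6.f), 1.15 higher in DKO-R on the direct arrays and 1.22 higher in DKO-S on the DOX arrays, and MAP2K3, at 1.07 and 0.86. CXCR4 was 0.26 lower in the channels labelled DKO-R on the direct arrays, and 0.26 lower in those labelled DKO-S on the DOX arrays. SLC26A9 ran with the labels, 0.59 lower in DKO-R on the direct arrays and 0.07 higher in DKO-S on the DOX arrays. Over all 6234 clones set side by side, 3563 ran opposite to the labels and 2671 with them. Of the 45 named clones among these, 25 ran opposite and 20 with them. Their median difference on the direct arrays was 0.08, so that many of these signs rest on small differences. DKO-R minus DKO-S on the direct arrays and DKO-S minus DKO-R on the DOX arrays had a Pearson correlation of 0.83 over the 45. IgJ, at 2.90 and 2.41, lay farthest from 0 in both. Over all 6234 clones the correlation was 0.25. Which set of labels holds was not settled from the arrays, so that DKO-S stands below for the line so labelled on the DOX arrays. The ratio of +DOX to -DOX within an array does not depend on it.

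**Figure D2:**
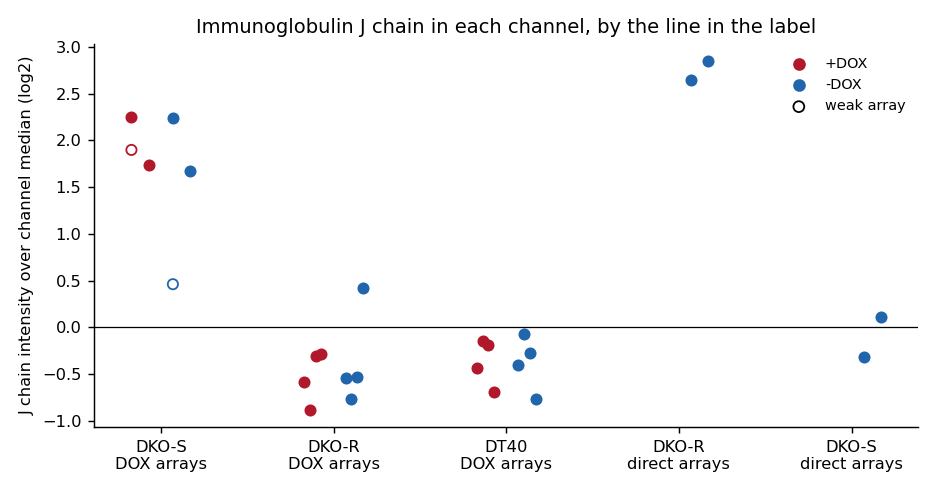
Intensity of immunoglobulin J chain over the median of its channel (log2), by the line named in the label, in +DOX (red) and -DOX (blue) channels, with weak arrays as open circles. The kept channels labelled DKO-S lie at 1.68 to 2.25 on the DOX arrays and at -0.32 and 0.11 on the direct arrays.

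No clone passed an adjusted p of 0.05 in DKO-S. Of 7936 clones tested with limma, 0 (0%) were called, the lowest adjusted p was 1.00, and 76 had an unadjusted p under 0.05, of which 63 (0.794%) were lower and 13 (0.164%) higher in +DOX cells. The 76 are 0.958% of the clones, fewer than evenly spread p values would give at 0.05. They are described below but not taken as clones that respond. A single clone was 2-fold or more lower in +DOX cells in both cultures and 0 were 2-fold or more higher in both. At a log2 ratio of 0.5 or more in both cultures there were 29 lower and 5 higher clones. The test rests on 1 residual degree of freedom and 5.03 of the prior, and the 95% interval of a clone had a median half-width of 0.58 on the log2 scale. For 7174 clones (90.4%) the interval, not adjusted for the number of clones, lay between -1 and 1, within 2-fold. A p that misses the threshold does not show that the extracts were alike. Leaving out a culture leaves 1 DKO-S array, whose spread is then taken from the other lines. A dye bias left after the offset does not cancel on a lone array, so counts from it do not compare with these. As the extracts are of whole cultures, a change in the share of some cells cannot be told apart from a change in the RNA of each.

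The cultures did not move together. Across the 7936 clones, which share the 2 arrays and their dye bias, the log2 ratios of cultures A and B had a Pearson correlation of -0.37 (Spearman -0.32), and 39.6% had the same sign, 20.9% below 0 in both and 18.7% above 0 in both. Before the dye offset was subtracted the correlation was -0.57. The mean of both cultures had a standard deviation across clones of 0.21, and the part of opposite sign, which changes with the dye and with the culture, one of 0.31. As culture A had +DOX in Cy3 and culture B in Cy5, a dye bias of equal size on both arrays would cancel in the mean, and an unequal one would stay in it, which was not tested. Any dye bias left after the offset also enters the gap between the cultures. The standard errors, intervals and p values of DKO-S are made from that gap, so they do not measure the spread of cultures alone. These arrays cannot tell dye from culture. With the offset of each line taken from another line's arrays only, the correlation was -0.36 (offset from DKO-R) and -0.53 (offset from DT40) in DKO-S, -0.30 in DKO-R (offset from DT40) and -0.32 in DT40 (offset from DKO-R), on arrays of the same orientation. The standard deviation of the mean was then 0.211 (offset from DKO-R) and 0.209 (offset from DT40) in DKO-S, 0.234 in DKO-R and 0.255 in DT40.

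**Figure D3:**
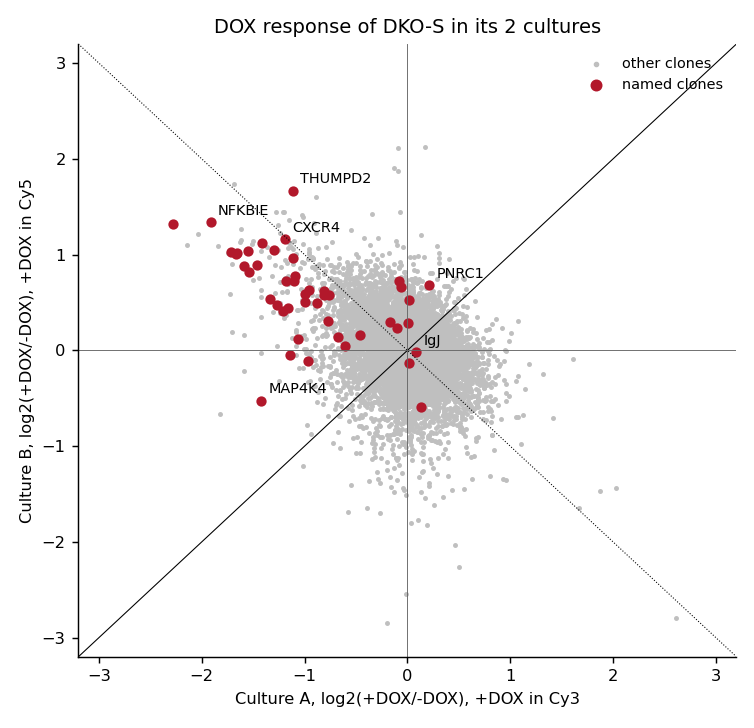
log2(+DOX/-DOX) of 7936 clones in culture A (horizontal) and culture B (vertical) of DKO-S, with 46 named clones in red and the lines of equal (solid) and opposite (dotted) values. Most named clones lie at the upper left, below 0 in culture A and above 0 in culture B, while MAP4K4 lies below 0 in both.

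Of the 47 named clones, 46 were measured on both main arrays and 0 were called. CHMP7, a relative of the ESCRT-III proteins that sort cargo in endosomes, had no spot above the filter. In 37 of the 46 (80.4%) the ratio was below 0 in culture A and above 0 in culture B, against 31.4% of all clones. Only 3 (6.52%) were below 0 in both cultures, against 20.9% of all clones, and 3 (6.52%) above 0 in both, against 18.7%. Their median log2 ratio was -1.08 in culture A and 0.59 in culture B, with a median of -0.22 for the mean of both, against -0.00 over all clones. The intervals of 14 of the 46 (30.4%) lay between -1 and 1, and the median half-width was 0.94.

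The signalling group of 8 clones held the one named clone with an unadjusted p under 0.05. MAP4K4 (ChEST104D11), a kinase upstream of the JNK pathway, had intensities of 5414 in +DOX cells and 18722 in -DOX cells of culture A, and of 7321 in +DOX cells and 2131 in -DOX cells of culture B. Set against the median ratio of each array and the dye offset of 1.81, these are log2 ratios of -1.42 in culture A and -0.52 in culture B. Before the offset was subtracted, the centred log2(Cy5/Cy3) was 3.24 on the array of culture A and 1.29 on that of culture B. Culture B, with +DOX in Cy5, thus lay below 0 only after the subtraction. Both cultures were below 0, with a mean of -0.97 (standard error 0.29, 95% interval -1.68 to -0.27), and the weak array of culture B gave -1.02, from 1 spot with a +DOX intensity of 222. MAP4K4 did not pass the threshold (limma, adjusted p = 1.00).

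PNRC1, a coregulator of nuclear receptors, is printed as a pair of clones. ChEST358J1 had intensities of 10888 in +DOX cells and 3137 in -DOX cells of culture A, and of 9884 in +DOX cells and 4656 in -DOX cells of culture B. Its log2 ratios were 0.21 and 0.68, both above 0, with a mean of 0.45 (95% interval -0.15 to 1.04), and the weak arrays gave -4.59 in culture A, from 1 spot with a +DOX intensity of 196, and 1.09 in culture B. The other clone, pat.pk0061.e6.f, was at -0.10 and 0.23, with a mean of 0.07 (95% interval -0.51 to 0.64), so that PNRC1 was above 0 in both cultures by only 1 of its clones.

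CXCR4 (dkfz426_3j23r1), the receptor of the chemokine SDF-1, had intensities of 2363 in +DOX cells and 3518 in -DOX cells of culture A, and of 3250 in +DOX cells and 708 in -DOX cells of culture B. Its log2 ratio was -1.19 in culture A and 1.16 in culture B, opposite in sign and of like size. The mean was -0.01 with a wide 95% interval of -1.30 to 1.28, so that these arrays bound the response of CXCR4 to DOX no closer than about that range. The width comes from the gap between the arrays, in which dye and culture cannot be told apart. The MAP kinase kinase of the p38 pathway, MAP2K3, was at 0.13 in culture A and -0.59 in culture B. KIDINS220, a scaffold of neurotrophin receptors, was at -1.46 and 0.89, DUSP1, a phosphatase that inactivates MAP kinases, at -1.10 and 0.72, and PSPH, of serine synthesis, at -1.12 and 0.97. Of the 8 signalling clones 1 was below 0 in both cultures, 1 above 0 in both, and the other 6 had opposite signs in the cultures, 5 of them with culture A below 0.

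Among the clones of trafficking, AP1B1 (dkfz426_15a17r1), the beta subunit of the clathrin adaptor AP-1 of the trans-Golgi network, had intensities of 3971 in +DOX cells and 7913 in -DOX cells of culture A, and of 3859 in +DOX cells and 1252 in -DOX cells of culture B. Its log2 ratios were -1.06 and 0.11, with a mean of -0.47 (95% interval -1.28 to 0.33). It was the only gene of a list of 38 for clathrin and its adaptors that could be tied to a clone, and the clathrin heavy chain was not analysed here, so the loss of the transgene's transcript in +DOX cells was not checked. SRP54, of the particle that brings nascent secretory proteins to the endoplasmic reticulum, was at -0.09 and 0.72. CKAP4, a membrane protein of the endoplasmic reticulum, was at -1.67 and 1.01, CD63, a tetraspanin of late endosomes, at -1.21 and 0.41, and the proton pump subunit ATP6V0A3 at -0.99 and 0.59. All 5 measured clones of trafficking were below 0 in culture A and above 0 in culture B.

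The clones of cell interaction did the same. ITGB5, integrin beta 5, was at -0.99 in culture A and 0.51 in culture B, the chemokine CCL17 at -0.88 and 0.49, Tara, a regulator of actin, at -1.16 and 0.44, and the actin-capping protein CAPZB at -0.61 and 0.04. Their means lay between -0.36 and -0.19.

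Of the 10 clones of transcription, 2 were below 0 in both cultures, 1 was above 0 in both and 7 were below 0 in culture A only. SNAPC5, a subunit of the complex that activates transcription of small nuclear RNAs, had intensities of 3595 in +DOX cells and 6223 in -DOX cells of culture A, and of 4814 in +DOX cells and 1641 in -DOX cells of culture B. Its log2 ratios of -1.14 and -0.04 gave a mean of -0.59 (95% interval -1.37 to 0.18). TSC22D4, of the TSC22 family, was at -0.97 and -0.11, with a mean of -0.54 (95% interval -1.23 to 0.16). For both genes the mean came almost wholly from culture A.

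DDIT3 (ChEST686B4), the stress transcription factor also called CHOP, had log2 ratios of 0.01 and 0.29, a mean of 0.15 with a 95% interval of -0.42 to 0.72. The value of culture B came from 1 of its 2 spots, with intensities of 1022 in +DOX and 510 in -DOX cells. Its dye offset rests on 6 of the 8 arrays, and its name is not among the 33 found in the RefSeq annotation. XBP1 (pat.pk0048.g12.f), which directs the unfolded protein response and the making of plasma cells, was at -1.18 and 0.72, with a mean of -0.23 (95% interval -1.33 to 0.86). With PSPH and SRP54 these are the 4 genes with a clone among 25 listed for stress of the endoplasmic reticulum and amino acid response, and 0 were called. NFKBIE, an inhibitor of NF-kB, had the widest gap between the cultures of the transcription clones, at -1.91 and 1.34, and THUMPD2 stood at -1.12 and 1.67. LMO2, a LIM-domain coregulator, was at -1.10 and 0.78, CHTOP at -0.81 and 0.62, CDC73, of the Paf1 complex, at -0.67 and 0.14, and the nucleoporin NUP133 at -0.17 and 0.30.

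Among 7 immune clones IgJ was the nearest to no difference. It had intensities of 19991 in +DOX cells and 7464 in -DOX cells of culture A, and of 7201 in +DOX cells and 4760 in -DOX cells of culture B, which after centring are log2 ratios of 0.09 and -0.02. The mean of 0.03 had a 95% interval of -0.52 to 0.58, while the weak array of culture B gave 1.37. The other 6 were below 0 in culture A and above 0 in culture B: the antimicrobial peptides Gal-1alpha (-1.33 and 0.54) and NK-lysin (-0.96 and 0.63), avian thymic hormone (ATH, -1.59 and 0.88), LY6E-like (-1.66 and 1.02), the checkpoint ligand CD274 (-1.55 and 1.04) and complement C4 (-0.78 and 0.31). NK-lysin is the only named gene of 17 on a list of markers of T and NK cells.

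Of the 12 remaining clones RPL10A (ChEST26M15), of the large ribosomal subunit, was the only one above 0 in both cultures. It had intensities of 10929 in +DOX cells and 2545 in -DOX cells of culture A, and of 5455 in +DOX cells and 3780 in -DOX cells of culture B, or log2 ratios of 0.01 and 0.53. The mean was 0.27 with a 95% interval of -0.34 to 0.88. The glycolytic enzyme GAPDH was at -0.81 and 0.58. The anion transporter SLC26A9 was at 0.02 and -0.13, on either side of 0 by little. The other 9 were below 0 in culture A and above 0 in culture B, among them avidin, the biotin-binding protein of egg white (-1.27 and 0.48), RAD54B, of recombination repair (-1.30 and 1.05), the F-box protein FBXO46 (-1.72 and 1.03), testhymin (-0.07 and 0.66) and 5 clones listed as unknown, whose means lay between -0.48 and -0.09. Lists for iron uptake and use (26 genes), apoptosis (31), mitochondrial respiration and translation (33), the cell cycle (28) and cholesterol synthesis (16) held 0 genes that could be tied to a clone, as did markers of erythroid and myeloid cells (14) and of fibroblasts and other cells (10), so no statement on them is made.

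**Figure D4:**
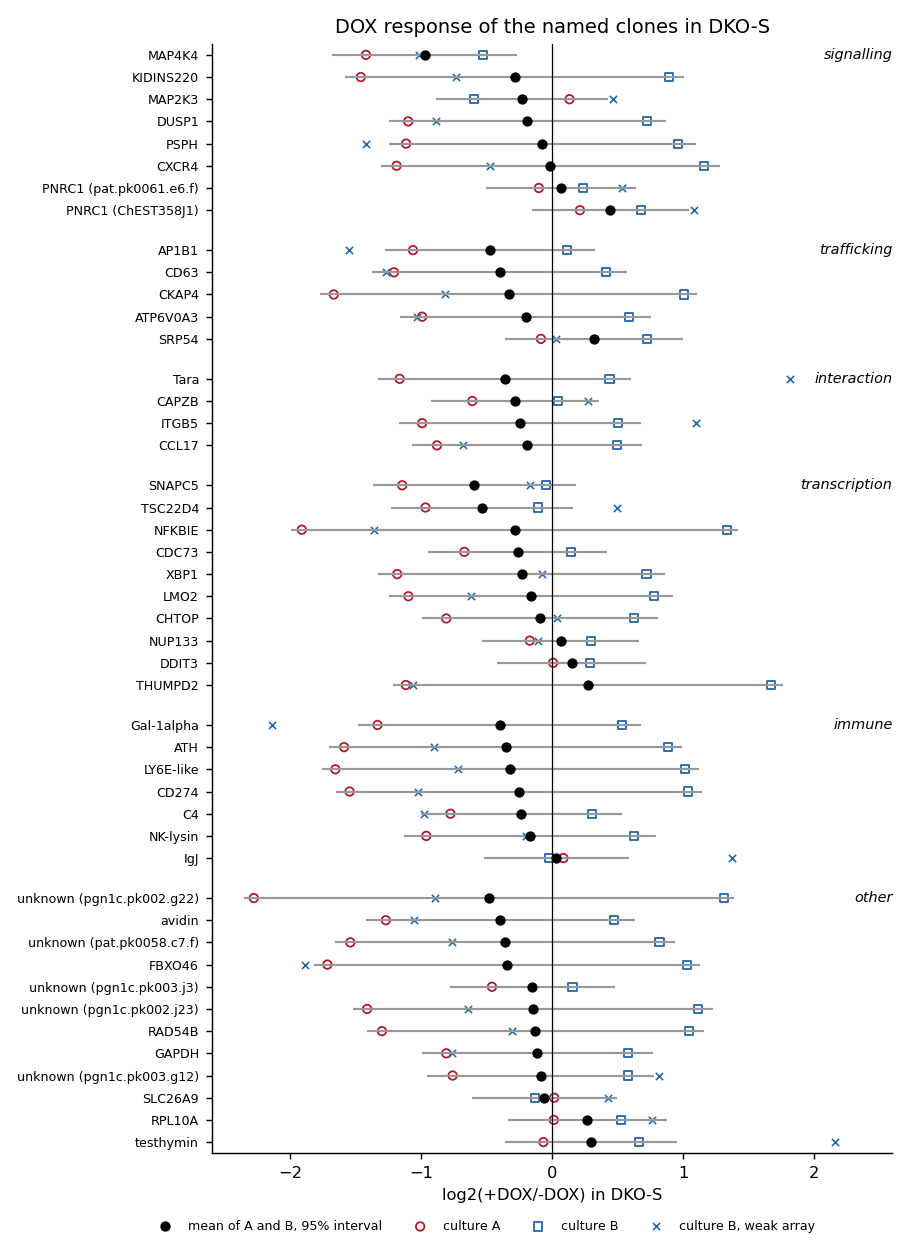
log2(+DOX/-DOX) of 46 named clones in DKO-S, in culture A (red circles), culture B (blue squares) and on the weak array of culture B (crosses), with the mean of A and B and its 95% interval from limma (black points and grey lines). The interval of MAP4K4 alone does not cross 0, and 37 clones have the circle left and the square right of 0.

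The named clones were also described by their dye offset. The 37 that were below 0 in culture A and above 0 in culture B had, by that choice, a log2(Cy5/Cy3) above their offset on both main arrays, with a median of 2.28 on the array of culture A and 1.87 on that of culture B. Their offsets, from the 8 arrays of DKO-R and DT40 cells, had a median of 1.11, ranged from -0.16 to 2.29 and were above 0 for 35 of the 37. Of the 72 clones with an offset of 1 or more, 61 (84.7%) had the same pair of signs, and so had 36 of the 44 (81.8%) outside the named list, against 31.4% of all clones. Whether the opposite signs come from the dye or from the cultures cannot be told apart on these arrays.

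The named clones were then followed on all DOX arrays. On the 11 arrays other than the weak one of culture A, 5 of the 42 named clones measured on all of them (11.9%) were below 0 on 10 or more, namely MAP4K4, CD274, FBXO46, LMO2 and ATP6V0A3, and 2 (4.76%) were above 0 on 10 or more, namely RPL10A and PNRC1 (ChEST358J1). Of all 2971 clones measured on the 11 arrays these were 18 (0.606%) and 29 (0.976%). The 11 include the weak array of culture B, where there was little +DOX signal and a sign says little. All 5 were below 0 on it, from -1.88 (FBXO46) to -0.62 (LMO2), while RPL10A and PNRC1 (ChEST358J1) were above 0. How the shares stand without that array was not tested. For 4 of the 5 the array above 0 was the main DKO-S array of culture B. They stood there at 1.04 (CD274), 1.03 (FBXO46), 0.78 (LMO2) and 0.59 (ATP6V0A3). MAP4K4 was below 0 on 10 of its 11. Its log2 ratios were -1.42, -0.52 and -1.02 in DKO-S, -0.04, -1.76, 0.30 and -1.20 in DKO-R, and -0.73, -0.62, -0.16 and -0.27 in DT40, the last with no Tet-Off transgene. The clone PNRC1 ChEST358J1 was above 0 on 11 of 12 arrays, the exception being the weak array of culture A. It stood at 0.21, 0.68, -4.59 and 1.09 in DKO-S, at 0.50 to 0.77 in DKO-R and at 0.05 to 0.49 in DT40. The other PNRC1 clone, pat.pk0061.e6.f, was above 0 on 8 of 11 arrays. RPL10A was above 0 on 10 of 11 arrays, at 0.01, 0.53 and 0.76 in DKO-S, 0.15 to 0.66 in DKO-R and -0.02 to 0.36 in DT40. The genes with printed values were picked after these were seen, the offset was taken from the DKO-R and DT40 arrays themselves, the 2 arrays of a culture share their extracts, and a common response of the lines was not tested.

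**Figure D5:**
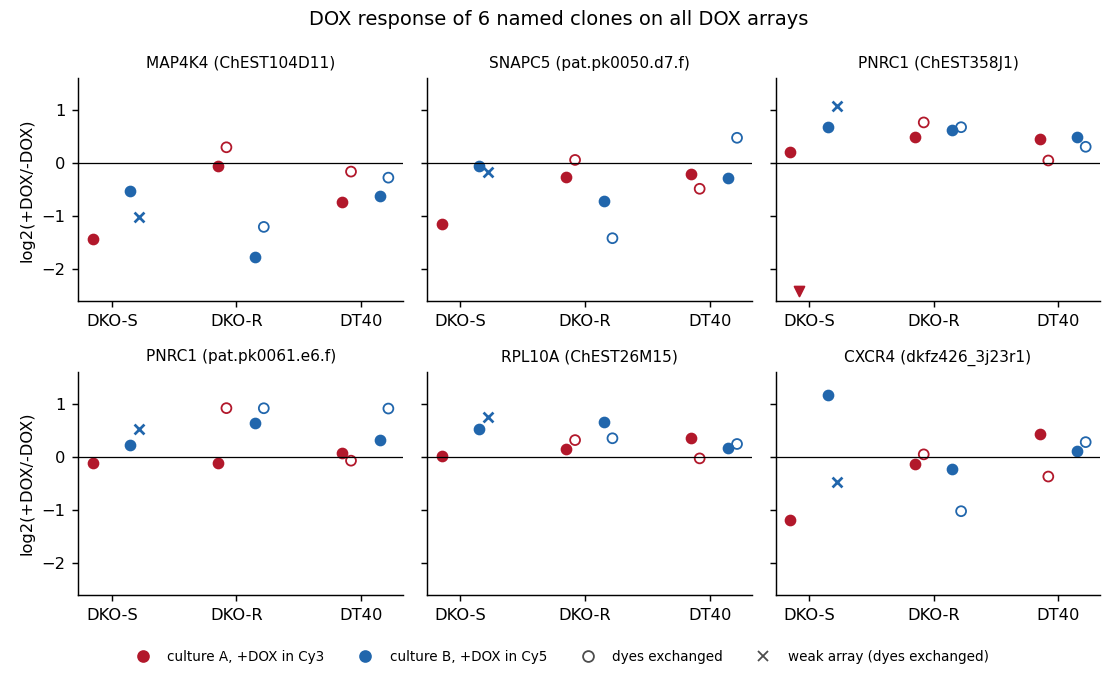
log2(+DOX/-DOX) of 6 named clones on every DOX array of DKO-S, DKO-R and DT40, in culture A (red) and culture B (blue), with filled circles for the orientation of the main arrays, open circles for dyes exchanged and crosses for the weak DKO-S arrays. The red triangle marks a value beyond the axis, -4.59. MAP4K4 lies below 0 and ChEST358J1 above 0 in all 3 lines, with 1 exception each, while the CXCR4 values lie on both sides.

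The difference of the DOX response between DKO-S and the other lines was tested on 6 arrays of matched orientation, 1 for each culture of each line. Of 6431 clones 0 (0%) differed between DKO-S and DKO-R at an adjusted p of 0.05, with 217 (3.37%) at an unadjusted p under 0.05, and 0 (0%) between DKO-S and DT40, with 357 (5.55%). The lowest adjusted p values were 1.00 and 0.88 (limma). The median half-width of a 95% interval was 0.62. Of the 45 named clones in this test, 0 had an unadjusted p under 0.05 in either contrast. DKO-S minus DKO-R had a median of 0.16 over them, from -0.20 (PNRC1, pat.pk0061.e6.f) to 1.04 (THUMPD2), and DKO-S minus DT40 a median of 0.11, from -0.62 (CD63) to 1.41 (THUMPD2, 95% interval -0.43 to 3.26). For CXCR4 the difference was 0.17 from DKO-R (95% interval -1.24 to 1.57) and -0.29 from DT40 (95% interval -1.70 to 1.11). For MAP4K4 it was -0.07 from DKO-R (95% interval -1.26 to 1.12) and -0.30 from DT40 (95% interval -1.48 to 0.89). The bounds were narrower for IgJ, with 0.13 from DKO-R (95% interval -0.43 to 0.68) and 0.12 from DT40 (95% interval -0.44 to 0.68).

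Matched by orientation, the named clones had a median response of -0.22 in DKO-S, -0.47 in DKO-R and -0.25 in DT40. Both cultures were below 0 in 3 of 46 in DKO-S, 26 of 45 in DKO-R and 26 of 46 in DT40. Those below 0 in culture A and above 0 in culture B were 37 in DKO-S, 2 in DKO-R and 7 in DT40, a difference that was not tested. Over all clones the 2 patterns made up 20.9% and 31.4% in DKO-S. Such shares were not counted in DKO-R and DT40, so the counts are not read as a trait of the named clones. The offset subtracted from all arrays was itself taken from the arrays of DKO-R and DT40. Over all clones, the mean response of DKO-S had a Pearson correlation of -0.01 with that of DKO-R (7161 clones) and of -0.13 with that of DT40 (6934 clones) on arrays of the same orientation.

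The clones outside the named list are known here by their ID alone. With the same sign in both cultures and the smallest p, ChEST795G2 had intensities of 1905 in +DOX cells and 1350 in -DOX cells of culture A, and of 498 in +DOX cells and 848 in -DOX cells of culture B. Its log2 ratios were -1.01 and -1.21, the single clone 2-fold or more lower in both, each from 1 of its 2 spots. The mean was -1.11 (standard error 0.23, limma, adjusted p = 1.00), and its dye offset rests on 3 of the 8 arrays. The clone pat.pk0036.a3.f was at -0.94 and -0.88, from 2 spots on each array. The weak array of culture B gave -1.32, from 1 spot with a +DOX intensity of 175 against 5454 in -DOX cells. In DKO-R and DT40 it ranged from -0.24 to 0.09 and from -0.41 to -0.07. In the other direction the smallest p among such clones were those of ChEST63E19, at 0.55 and 0.76, and DT40subNB_14C10, at 0.55 and 0.75. ChEST63E19 rests on 1 of its 2 spots on each main array and DT40subNB_14C10 on 2, and neither clone passed the threshold. These lay above 0 in both cultures of DKO-S, while ChEST63E19 ranged from -1.18 to 0.02 in DKO-R and from -0.23 to 0.71 in DT40, and DT40subNB_14C10 from -0.28 to 0.22 in DKO-R and from -0.43 to 0.47 in DT40.

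The 63 clones that were lower and the 13 that were higher at an unadjusted p under 0.05 were set beside each other in brightness, with no test. The median of the mean log2 intensity was 11.5 for the lower and 10.4 for the higher ones, against 11.1 for all clones, and among the 1984 brightest clones there were 20 lower and 0 higher. By the library of the clone, 19 of the lower ones and 3 of the higher ones were among 1244 clones that start with DT40subNB (1.77%), against 30 and 9 of 5095 that start with ChEST (0.765%). The median response was 0.0018 in the ChEST, -0.02 in the DT40subNB, -0.05 in the pat and 0.04 in the pgn1c clones. In DKO-R and DT40, estimated from 2 arrays with the offset of the other line, 31 and 83 clones were lower and 91 and 55 higher at an unadjusted p under 0.05, with 0 called in each.

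On the weak array of culture B, 26 of the 63 lower clones and 5 of the 13 higher ones were measured, and 15 and 2 of these had the same sign there. Over all clones the weak array of culture B had the sign of the main mean in 56.1% of 3348 clones (Pearson correlation 0.15), and the weak array of culture A in 47.9% of 390 (Pearson correlation -0.00). Each weak array shares its extracts with the main array of its culture. Against that array alone the correlation was 0.09 over 458 clones in culture A and -0.07 over 3422 in culture B.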

How the data were processed

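The arrays are 2-colour slides of chicken EST clones. The authors deposited the intensity of each spot in both channels and its confidence as a fraction, as BlueFuse (version 1.1, build 2765, per the file headers) gave them, without normalisation. The labels give the dye of each channel, Cy3 for channel 1 and Cy5 for channel 2. The authors also deposited log2 values of Cy5 over Cy3 for 12861 positions, used as an alternative only. Buffers, blanks, foreign or genomic DNA, spike-ins and 2 clones printed 96 times each were left out as controls. Ratios were made as described above, and limma 3.58.1 (R 4.3.3; functions lmFit and eBayes, two-sided, Benjamini-Hochberg over all clones) fitted 1 mean to the 2 main arrays, and line means to 6 arrays with 3 residual degrees of freedom. The offset was measured on all 8 arrays for 6104 of the 7936 clones. Steps were tested on simulated data. Named clones are those of the study's list, with a value for each one measured, and in each direction up to 2 clones without a name that had the smallest p and the same sign in both cultures. The members and lists were chosen with earlier results of these data known. No sequence of the clones was used here. The alternatives were loess (span 0.3), centring by printed block, no filter, a confidence of 0.60, no offset, leaving out the dimmest 25%, the deposited log2 table, an adjusted p of 0.15, 50 added to both channels, the weak arrays, other fits, and leaving out each culture. An offset scaled to each array, an offset required on all 8 arrays, and leaving out cultures of DKO-R or DT40 were added after seeing the data.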

Additional observations from a re-analysis of the deposited data

Results flagged for a closer look

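In the arrays labelled DKO-R +DOX against -DOX, 1 of the 8 channels had immunoglobulin J chain at 0.43 on the log2 scale over its channel median, apart from the others, which lay between -0.89 and -0.29. It is a -DOX channel of culture B, and it lies below the 4 channels of the main DKO-S arrays. The same extract gave -0.77 in the other dye. Among independent values chance sets a value apart in this way in about 1 of 20 groups. These channels hold each extract in both dyes and are not independent, so that this rate need not hold.

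ChEST795G2 was below 0 in both cultures of DKO-S and above 0 on the 2 DT40 arrays that measured it, at 0.17 and 0.69, a difference of -1.54. The difference was not tested. The only DKO-R array that measured it gave -0.52. These 3 arrays are the ones its dye offset was averaged from, so that their values are tied to each other by construction.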

How the results depend on the processing

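No alternative called a clone. In each of the 3 tests (limma) 0 clones were called under all 16 alternatives. At an unadjusted p under 0.05 there were from 2 of 169 clones, with the weak arrays averaged in, to 731, without culture A, in the response of DKO-S (main 76), from 10 to 659 in its difference from DKO-R (main 217), and from 6 to 854 in its difference from DT40 (main 357). Without culture A or culture B of DKO-S, its lone array is assumed to vary like those of the other lines. A dye bias left after the offset does not cancel there, so these counts do not compare with the main ones. In the difference from DKO-R, there were 534 without culture B of DKO-S and 65 without culture B of DKO-R. In the response of DKO-S itself, loess gave 131, centring by printed block 141, no filter 332 of 12854, a confidence of 0.60 32 of 4279, and no offset 28. The deposited log2 table gave 262 lower and 285 higher clones in the difference from DKO-R, against 155 and 62 in the main analysis, and 262 lower and 501 higher from DT40, against 197 and 160. With centring by block the last were 158 and 67.

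With a replicate block for the culture letter 0 clones differed from DKO-R and 0 from DT40, with 164 and 252 at an unadjusted p under 0.05. The deviations of same-lettered arrays from their line's mean correlated at -0.01 (DKO-S with DKO-R), -0.15 (DKO-S with DT40) and -0.37 (DKO-R with DT40) over 6431 clones. Arrays of a letter share their dye orientation, and the offset came from the DKO-R and DT40 arrays. Whether the letters pair the cultures thus cannot be told from these correlations. MAP4K4 was below 0 under all 15 alternatives that gave a value (-1.42 to -0.52), and PNRC1 (ChEST358J1) above 0 under 15 of 16, with -0.65 when the weak arrays were averaged in. The ends of the MAP4K4 range are its values in culture A and culture B alone. The offset cancels in the mean of both, so dropping it, or changing the threshold, could not change a sign. These counts are thus no measure of how firm a response is. Of 682 values of named clones in the response, 50 lay on the other side of 0 from the main value, 40 of them when a culture was left out. With 1 array for each culture, differences of under 0.58 on the log2 scale lie within the interval of a typical clone.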
